A study of Mus musculus with 12 samples.

Results

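The livers of stressed Atf4 knockout mice carried transcripts that belong to other organs: genes of the adrenal cortex and medulla, of skeletal muscle and of fat. The members described here are the named loci whose level in the knockout tunicamycin group was at least 1 FPKM (sequenced fragments corrected for transcript length and library size) and at least 5 times the largest level of the 3 other groups. Of 27109 loci in the table, 23951 carry a gene name, and 175 of these were members. They were sorted by the organ in which each gene is best known: 14 to adrenal cortex, 12 to adrenal medulla, 63 to skeletal muscle, 10 to fat and 76 left unsorted. Because the members were selected on their level in 4 group values, the height of that group over the others is a description of the choice and carries no test.

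The study sequenced poly(A) RNA from livers of C57BL/6 mice, either wild type or LsATF4-/-, a knockout of Atf4 in the liver. Atf4 encodes a transcription factor made during stress of the endoplasmic reticulum (ER). The mice received an intraperitoneal injection of tunicamycin at 1 mg/kg, which blocks N-linked glycosylation and so stresses the ER, or of 0.3% DMSO, the solvent, and were followed for 6 h. Each genotype was given each injection, which makes 4 groups of 3 libraries, called below wild-type DMSO, wild-type tunicamycin, knockout DMSO and knockout tunicamycin livers. The sources used here do not name the promoter behind the liver deletion, or the age or sex of the mice. In the authors' deposited table Cuffdiff pools the 3 libraries of a group into 1 FPKM value per locus, so no group has an SD, no value shows whether 1 library carries it, and neighbours in an order of levels cannot be set against a spread.

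Steroid-making cells of the adrenal cortex import cholesterol into mitochondria and cut and oxidise it with a chain of cytochrome P450 enzymes and hydroxysteroid dehydrogenases to make corticosterone and aldosterone. Chromaffin cells of the medulla make adrenaline from tyrosine and store it in granules with chromogranins and peptides. Fast and slow fibres of skeletal muscle are told apart by their forms of myosin and troponin. Fat cells store triglyceride, secrete adipokines such as adiponectin and, in brown fat, make heat through the uncoupling protein Ucp1. Hepatocytes do not run these programmes as a whole. Some of their genes, such as Fdx1 and Ddc, were expressed in all 4 groups, as given below.

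The tissue itself read as liver in all groups. The 7 hepatocyte markers summed to 18454 FPKM in wild-type DMSO livers, 12619 in wild-type tunicamycin livers, 15261 in knockout DMSO livers and 10236 in knockout tunicamycin livers, with albumin listed at 0 in every group, where its test status reads HIDATA. All members together summed to 58.7, 88.3, 70.0 and 3234 FPKM in the same order. In the knockout tunicamycin group that was 0.636% of the summed FPKM of all loci, against 0.00861%, 0.0158% and 0.0122% elsewhere. The same rule applied to the other groups found 10 named loci for wild-type DMSO livers, 12 for wild-type tunicamycin livers and 2 for knockout DMSO livers. In bulk tissue, fewer cells of a type and less RNA per cell cannot be told apart. Per the labels, the 3 knockout DMSO libraries ran on lane 5 and the 9 others on lane 4, so where that group enters a comparison, lane and genotype or treatment cannot be told apart.

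**Figure D1:**
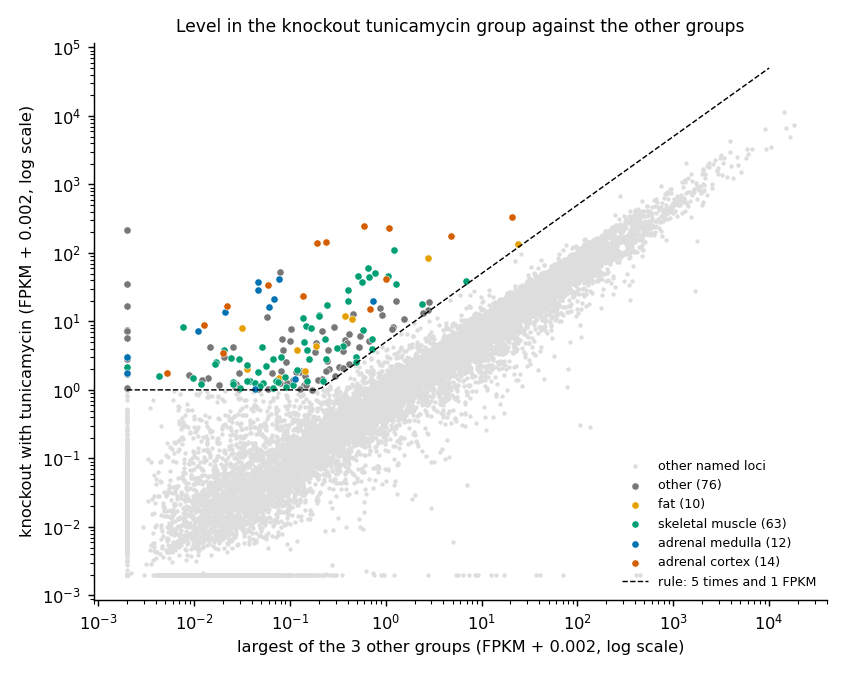
Each point is a named locus, with its FPKM in the knockout tunicamycin group on the y axis and the largest FPKM of the 3 other groups on the x axis, both plus 0.002 on log scales; colours mark the 175 members by home tissue and the dashed line is the rule. Most cortex and medulla members sit far above the line, while many muscle and unsorted members lie close to 1 FPKM.

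To show the regulatory sequence in front of some members, the 250 bases before the start of 5 of them were taken from RefSeq promoter windows (GRCm38.p6), written 5′ to 3′ on the gene's strand. They were chosen from the member windows that hold a motif well known for the tissue, and capitals mark that motif. The motifs searched, on both strands, were AAGGTCA, the core site of SF-1, the nuclear receptor of steroid-making cells (here on the reverse strand, so printed as its complement), TGACGTCA, the cyclic AMP response element, and CAGCTG, an E-box of the kind that muscle regulatory factors bind. Akr1b7 encodes an aldo-keto reductase of the cortex, Chgb a chromogranin, Th the first enzyme of catecholamine synthesis, Acta1 the actin of skeletal muscle and Mylpf a fast regulatory myosin light chain. The window's start was matched to a GENCODE transcript for 4 of the genes and not for Acta1.
Akr1b7 (chr6:34412112-34412361, plus strand): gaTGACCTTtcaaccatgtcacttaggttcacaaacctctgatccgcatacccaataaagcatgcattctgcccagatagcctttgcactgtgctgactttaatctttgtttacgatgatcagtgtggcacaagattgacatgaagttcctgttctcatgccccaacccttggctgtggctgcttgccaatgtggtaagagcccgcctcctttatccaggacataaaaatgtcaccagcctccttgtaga
Chgb (chr2:132781392-132781641, plus strand): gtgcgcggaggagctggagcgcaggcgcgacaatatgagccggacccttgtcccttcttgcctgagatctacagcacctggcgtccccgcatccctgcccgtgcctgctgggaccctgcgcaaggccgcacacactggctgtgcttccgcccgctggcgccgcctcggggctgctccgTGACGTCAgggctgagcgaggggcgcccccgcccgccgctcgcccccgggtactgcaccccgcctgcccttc
Th (chr7:142899996-142900245, minus strand): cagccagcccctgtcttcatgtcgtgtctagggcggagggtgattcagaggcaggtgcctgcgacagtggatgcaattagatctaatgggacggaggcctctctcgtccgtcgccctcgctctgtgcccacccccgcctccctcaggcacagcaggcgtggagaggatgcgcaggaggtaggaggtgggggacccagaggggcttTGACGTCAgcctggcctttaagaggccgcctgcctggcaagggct
Acta1 (chr8:123894776-123895025, minus strand): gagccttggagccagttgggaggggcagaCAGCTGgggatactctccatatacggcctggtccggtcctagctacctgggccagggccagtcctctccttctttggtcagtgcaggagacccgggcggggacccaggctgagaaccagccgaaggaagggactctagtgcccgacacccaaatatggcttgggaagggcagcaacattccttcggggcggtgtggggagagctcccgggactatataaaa
Mylpf (chr7:127211358-127211607, plus strand): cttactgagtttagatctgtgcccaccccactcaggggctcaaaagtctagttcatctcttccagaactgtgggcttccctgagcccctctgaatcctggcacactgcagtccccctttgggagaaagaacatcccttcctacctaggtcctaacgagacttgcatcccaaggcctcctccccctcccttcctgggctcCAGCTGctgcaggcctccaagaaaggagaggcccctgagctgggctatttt

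The E-box letters CAGCTG stood in 28 of 62 promoter windows of muscle members (45.2%), against 13% of all 32851 windows of this length and 14.5% of the 55 windows of unsorted members. The TGACGTCA element stood in 3 of 11 medulla windows (27.3%), in 0 of 62 muscle windows and in 1.55% of all windows. AAGGTCA was found in 1 of 7 cortex windows, beside 4.08% of all. The table held 120 of the 177 gene names of the members, and only 6 of 15 for the cortex. A match is a description of letters and does not show binding.

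The cortex members traced the steroid pathway from cholesterol transport to the last oxidations. Star, which carries cholesterol into the mitochondrion (mm9 chr8:26918984-26958166), was at 1.01 FPKM in wild-type DMSO livers, 1.07 in wild-type tunicamycin livers, 0.641 in knockout DMSO livers and 232 in knockout tunicamycin livers. Cyp11a1, the side-chain cleavage enzyme that makes pregnenolone (chr9:57862823-57874830), was at 0.169, 0.188, 0.00889 and 138 FPKM in the same order. Hsd3b1, the adrenal and gonadal 3-beta-hydroxysteroid dehydrogenase, read 0.594, 0.412, 0.107 and 244 FPKM. In knockout tunicamycin livers the 3 genes stood at 216, 732 and 411 times the largest other group.

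Downstream enzymes followed. Cyp21a1, the 21-hydroxylase, was at 3.35, 0.781, 4.80 and 175 FPKM, so that its lowest value was in wild-type tunicamycin livers. Cyp11b1 and Cyp11b2, which finish corticosterone and aldosterone, were merged into 1 locus by the assembly and read 0.150, 0.234, 0.00778 and 142 FPKM, so both hormones' enzymes cannot be told apart. Akr1c18, the reductase that inactivates progesterone, was at 0.709, 0.238, 1.01 and 42.0 FPKM. Hsd3b1, Cyp21a1 and the Akr1c genes have close relatives or pseudogene copies, so reads may be split between copies and these values are uncertain. Cyp17a1, which mouse adrenals largely lack, was no member: it read 81.1, 29.7, 80.3 and 29.8 FPKM, highest in the groups without tunicamycin.

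The regulators of the cortex were present at lower levels. Nr5a1, the nuclear receptor SF-1 that directs steroid-making genes, was at 0.0200, 0.00512, 0.0102 and 16.7 FPKM. Mc2r, the receptor for the pituitary hormone ACTH, was at 0.0104, 0.0106, 0 and 8.91 FPKM. Both were near 0 outside the knockout tunicamycin group, where Nr0b1, a partner of Nr5a1, stood at 0.443 FPKM and Agtr1b, the angiotensin receptor of the outer cortex, at 0.461, below the rule's level. Among other cortex genes, the mitochondrial protein Mgarp reached 34.1 FPKM, the potassium channels Kcnk3 and Kcnk9 reached 23.7 and 1.76, and Dlk1, found in the capsule and outer cortex, reached 3.42.

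Akr1b7 had the highest level of all members and also differed among the 3 other groups. It was at 3.95 FPKM in wild-type DMSO livers, 20.8 in wild-type tunicamycin livers, 1.19 in knockout DMSO livers and 332 in knockout tunicamycin livers. In the authors' deposited table it rose by 2.39 on the log2 scale after tunicamycin in wild type (q 0.000396) and fell by 1.73 in knockout against wild type under DMSO (q 0.00108). It was the only cortex member called in either of those comparisons, in each of which 6 of the 14 could be tested. Over all tested loci, 18.1% were called higher in the first and 1.47% lower in the second.

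Of the 23 listed cortex genes, 11 were members (Cyp11b1 and Cyp11b2 at their shared locus). In all, 21 were highest in the knockout tunicamycin group, the members among them by the rule. Some listed genes did not meet the rule. The cholesterol ester enzyme Soat1 was just outside it at 4.60-fold (6.63 FPKM), and the lipoprotein receptor Scarb1 was at 75.9, 59.5, 56.2 and 128 FPKM. Fdx1, the electron donor of mitochondrial P450 enzymes, was at 193, 131, 160 and 208 FPKM. Mrap, another listed gene, was highest in wild-type DMSO livers, at 43.8, 12.1, 39.6 and 23.3 FPKM. In the authors' deposited table Mrap was called lower after tunicamycin within the knockout (-0.767 on the log2 scale). Under tunicamycin it was called higher in the knockout than in wild type (0.944).

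Medulla members included genes for both the synthesis of adrenaline and its storage. Chga, the chromogranin of the granules (chr12:103793178-103803237), was at 0.0396, 0.0753, 0.0227 and 41.7 FPKM in wild-type DMSO livers, wild-type tunicamycin livers, knockout DMSO livers and knockout tunicamycin livers. Chgb (chr2:132607013-132620808) was at 0.0280, 0.0443, 0.0105 and 37.1 FPKM. These values lay under 0.1 FPKM in every group but the last.

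The member enzymes of catecholamine synthesis were Th, Dbh and Pnmt, at or near 0 in both DMSO groups. Th read 0, 0.0192, 0 and 13.9 FPKM, and Dbh, which makes noradrenaline, 0.00901, 0.00717, 0 and 7.28. Pnmt, which methylates noradrenaline to adrenaline, read 0, 0.0580, 0 and 16.1 FPKM. The granule peptides and processing proteins were Npy (28.4 FPKM in knockout tunicamycin livers), Scg2 (21.4), the carboxypeptidase Cpe (20.02), Resp18 (3.07) and galanin, Gal (1.78), the last 2 listed at 0 elsewhere. Ddc, the decarboxylase of the pathway, was no member, at 21.97, 47.7, 19.6 and 42.6 FPKM.

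Of 31 listed medulla genes 9 were members and 28 were highest in the knockout tunicamycin group, the members among them by the rule. Of the 31, 14 reached 1 FPKM there. The transporters Slc18a1 and Slc18a2 were no members, at 2.11, 2.31, 1.47 and 2.72 FPKM and at 0.285, 0.210, 0.335 and 0.523 FPKM. Hand2 was at 3.96, 2.98, 4.32 and 3.55 FPKM and Syt1 at 3.32, 3.78, 3.48 and 2.43. In the authors' deposited table Syt1 was called lower in the knockout than in wild type under tunicamycin (q 0.0346). Cortex transcripts exceeded medulla transcripts: the 14 cortex members summed to 1409 FPKM and the 12 medulla members to 193, and Star stood at 5.56 times Chga.

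**Figure D2:**
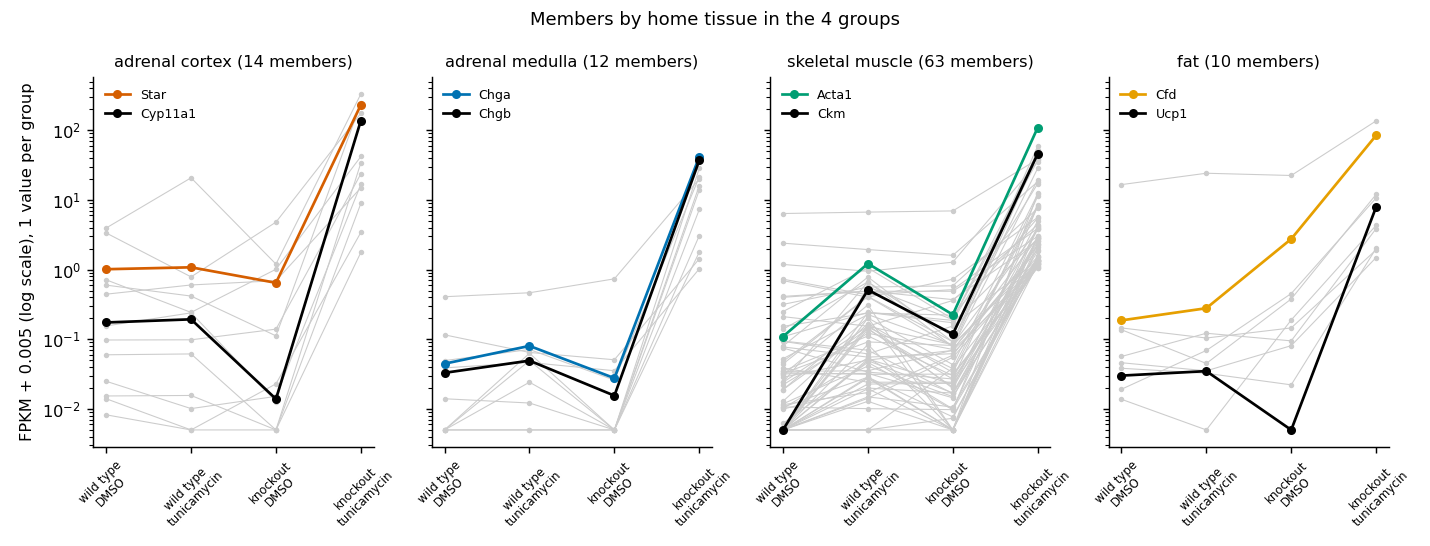
FPKM plus 0.005 on a log scale in the 4 groups, with 1 pooled value per group; each line is a member, and coloured and black lines are named marker genes. All members are highest at the right by the rule; among the 3 other groups, muscle members are mostly highest in wild-type tunicamycin livers and Cfd is highest in knockout DMSO livers.

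Muscle gave the longest set, 63 loci with a median of 2.95 FPKM and a sum of 722 in knockout tunicamycin livers, against sums of 14.3, 21.9 and 15.7 FPKM in the other groups. Acta1 (chr8:126415657-126418675) was at 0.104 FPKM in wild-type DMSO livers, 1.21 in wild-type tunicamycin livers, 0.221 in knockout DMSO livers and 109 in knockout tunicamycin livers. Ckm, the creatine kinase of muscle (chr7:19996442-20006932), was at 0, 0.507, 0.113 and 45.9 FPKM. The fast troponin subunits Tnnt3, Tnnc2 and Tnni2 reached 59.4, 51.5 and 46.3 FPKM, and myoglobin, Mb, read 0.0191, 0.663, 0.0734 and 44.3. In all of these the second highest group was wild-type tunicamycin livers.

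Light chains, calcium handling and Z-disc genes were part of the set. The light chains Myl1 and Mylpf reached 37.1 and 35.1 FPKM and the calcium pump Atp2a1 28.5. The titin cap protein Tcap reached 19.6 FPKM, the calcium buffer parvalbumin, Pvalb, 12.6 and the calcium channel Ryr1 1.32. Slc25a4, the nucleotide carrier of muscle mitochondria, differed from these in its level elsewhere, at 6.37, 6.68, 6.95 and 38.3 FPKM.

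Fast forms dominated. Myh1, Myh4 and Myh2, the fast myosin heavy chains, stood at 12.2, 8.23 and 7.96 FPKM in knockout tunicamycin livers, and the slow and cardiac form Myh7 at 2.55. Fast over slow ratios there were 34.5 for Tnni2 over Tnni1, 15.2 for Tnnt3 over Tnnt1 and 12.6 for Tnnc2 over Tnnc1. The embryonic Myh3 and perinatal Myh8 were at 0.00883 and 0.0473 FPKM, and the muscle transcription factors Myod1, Myog, Myf5 and Myf6 were at 0.0311, 0.0101, 0 and 0.271. The cardiac actin Actc1 was 406 times lower than Acta1.

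The 3 other groups were not alike in their traces of muscle. The rule compares only their largest value with the knockout tunicamycin group and leaves their order free. Wild type with tunicamycin was the highest of the 3 at 40 of 62 muscle members (64.5%), knockout DMSO livers at 14 and wild-type DMSO livers at 8. The same share was 38% over all 17770 named loci, and 28.1% over the 6241 whose largest other value was under 1 FPKM. Medulla members had it at 7 of 10 (70%), so this order is not particular to muscle. Muscle members had medians of 0.117 FPKM in wild-type tunicamycin livers, 0.0191 in wild-type DMSO livers and 0.0383 in knockout DMSO livers. At 48 of 60 members with a value the wild-type tunicamycin level was above the wild-type DMSO level, by at least 2-fold at 39, with 1 at least 2-fold the other way. Few of these levels could be tested by the authors: 14 of the 63 were, and Acta1 alone rose, by 3.54 on the log2 scale with q 0.00315 in the authors' deposited table. Over all 14998 loci tested there, 18.1% were called higher.

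The muscle trace in wild-type tunicamycin livers differed in its myosins. Its levels were a similar share of the knockout tunicamycin level at many of the highest genes: 1.11% for Acta1 and Tnnt3, 1.10% for Ckm, 1.497% for Mb, 1.51% for Tnnc2 and Myl1, and 1.62% for Myh1, with Tnni2 at 2.27%. Myh4, the form of the fastest fibres, stood at 0.0619% of it. Myh4 therefore held 26.6% of the summed level of the 4 adult myosins in knockout tunicamycin livers and 1.34% in wild-type tunicamycin livers, where the sum was 0.380 FPKM. Myh2 held 25.8% and 42.9%, Myh1 39.3% and 51.9% and Myh7 8.26% and 3.93% in these groups. Shares of the knockout tunicamycin level varied at other muscle members too, from 0 (Tnni1, Fabp3 and Mylk4) and 0.586% (Myh7) to 18.8% (Srl) in wild-type tunicamycin livers. At 0.00510 FPKM, Myh4 was about as low there as in both DMSO groups (0.00569 and 0.00477), and with 1 pooled value per group this difference could not be tested.

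**Figure D3:**
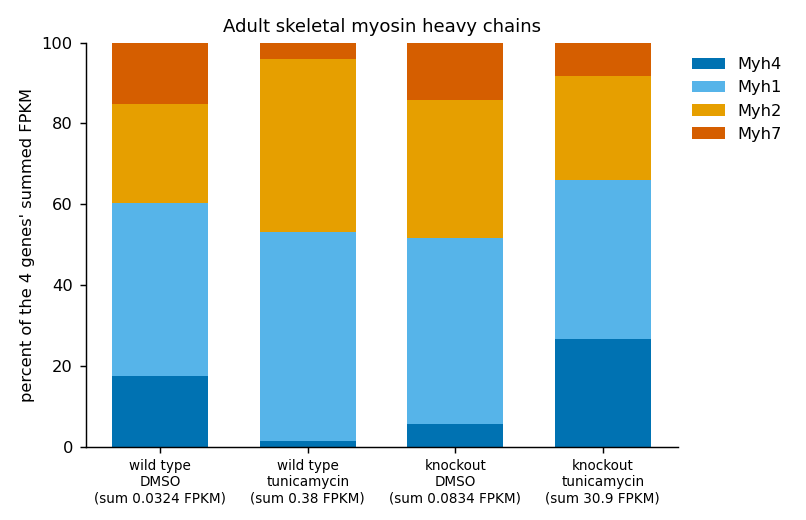
Bars show each adult skeletal myosin heavy chain as a percent of the summed FPKM of all 4, per group, with the sum below each bar. Myh4 makes up 26.6% in knockout tunicamycin livers and 1.34% in wild-type tunicamycin livers; the sums in both DMSO groups are under 0.1 FPKM.

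Of the 60 listed muscle genes 38 were members and 58 were highest in the knockout tunicamycin group, the members among them by the rule. The share of all named loci that were highest in that group is not given here. Other listed genes had another pattern: the oxidase subunit Cox6a2 was at 0.0645, 8.54, 0.372 and 11.6 FPKM, high in both tunicamycin groups. Csrp3 ran the other way, from 16.7 FPKM in wild-type DMSO livers to 7.14 in knockout tunicamycin livers.

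The fat members were few. Cfd, the serine protease adipsin that fat cells secrete (chr10:79353597-79355405), was at 0.182 FPKM in wild-type DMSO livers, 0.274 in wild-type tunicamycin livers, 2.75 in knockout DMSO livers and 84.3 in knockout tunicamycin livers. Adipoq, adiponectin, was at 0.0142, 0.0641, 0.448 and 10.7 FPKM, and Retn, resistin, at 0.132, 0.0400, 0.374 and 12.01. The lipid droplet coat Plin1 read 0.00878, 0, 0.184 and 4.32 FPKM. For all 4 the second highest group was knockout DMSO livers.

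In that group the 4 genes stood at 3.26%, 4.202%, 3.12% and 4.27% of their knockout tunicamycin level, in the order just given. Ucp1, which marks brown fat cells, did not share this: it was listed at 0 in knockout DMSO livers and read 0.0251, 0.0299 and 7.91 FPKM in the other groups. The brown fat gene Cidea reached 2.01 FPKM, at 0.854% of that level in knockout DMSO livers. Fabp4, a fatty acid carrier that endothelium and macrophages also make, was at 16.6, 24.1, 22.4 and 136 FPKM, and met the rule narrowly at 5.64-fold. Of 19 listed fat genes 8 were members and 16 were highest in the knockout tunicamycin group, the members among them by the rule.

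Over all 10 fat members the knockout DMSO group was the highest of the 3 other groups at 6 (60%), beside 29.6% of all named loci and 45.4% of those under 1 FPKM in these groups. The unsorted members were much the same, at 37 of 66 (56.1%), so this order is not particular to fat. Cfd was called higher in knockout than in wild-type livers given DMSO in the authors' deposited table, by 3.92 on the log2 scale with q 0.00397; with q computed within that comparison it was 0.0781, and the call was lost.

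**Figure D4:**
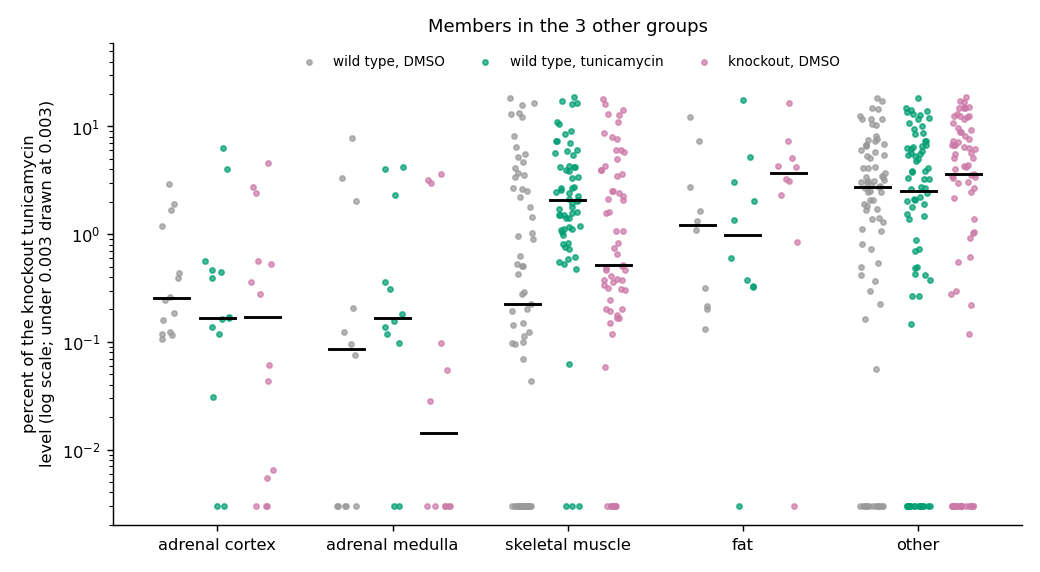
Each point is a member's FPKM in wild-type DMSO livers, wild-type tunicamycin livers or knockout DMSO livers as a percent of its level in knockout tunicamycin livers (log scale; values under 0.003 are drawn there), by home tissue; bars are medians. Muscle members are highest in wild-type tunicamycin livers (median 2.06%) and fat members in knockout DMSO livers (median 3.73%).

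The adrenal traces in the other groups were low at most members. Of 26 adrenal members, 19 were at least 100-fold higher in knockout tunicamycin livers, and their median level was 0.119% of it in wild-type DMSO livers, 0.139% in wild-type tunicamycin livers and 0.00547% in knockout DMSO livers, the group on the other lane. Cyp11a1 stood at 0.123%, 0.137% and 0.00645%, the merged Cyp11b1 and Cyp11b2 locus at 0.106%, 0.165% and 0.00547%, and Chgb at 0.0755%, 0.120% and 0.0284%. Both groups on lane 4 exceeded knockout DMSO livers at 10 of the 17 such members with a value, at 13 of 24 over all adrenal members (54.2%), at 27% of all named loci, and at 16.2% of those under 1 FPKM. Among the 7 adrenal members under 100-fold the knockout DMSO group was not the low group, with medians of 2.01%, 3.99% and 2.98%. The 19 members were picked by the levels compared here, after their values were seen, so these values are a description only; lane and genotype or treatment cannot be told apart in them.

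The 76 unsorted members summed to 645 FPKM in knockout tunicamycin livers and were a mixture. The highest was LOC100861615 at 213 FPKM, listed at 0 elsewhere, followed by Akr1cl, an aldo-keto reductase gene, at 0.0290, 0.0772, 0 and 52.2 FPKM. Slc22a29, of the organic ion transporter family, was at 35.3 FPKM and listed at 0 elsewhere; like LOC100861615 it lies in a wide mapped interval that holds other loci. Some unsorted members, Akr1cl and Nr4a1 among them, may also be active in the adrenal gland, so the counts and sums by home tissue are uncertain to that extent. Next came the precursor locus Mir466i (19.7 FPKM), Ly6d (19.3), Mir423 (17.0), the immediate early nuclear receptor Nr4a1 (0.567, 0.592, 0.871 and 15.4 FPKM), the merged lipid desaturases Scd2 and Scd3 (14.8), Gm6460 (13.4) and the imprinted noncoding RNA H19 (13.0). Values of the microRNA loci count poly(A) RNA mapped there and do not measure mature microRNAs. Of the 76, 10 were listed at 0 in all other groups, and 8 of these 10 carry a microRNA or an uncharacterised gene's name.

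A cluster of Hox genes, which record position along the body axis, was among them. Hoxb9, Hoxb8, Hoxb7 and Hoxb6 lie side by side on chromosome 11 and were at 4.30, 1.33, 2.14 and 1.85 FPKM in knockout tunicamycin livers. Hoxb9 was at 0.0128, 0 and 0.00508 FPKM elsewhere, and Hoxb7 at 0.125, 0.272 and 0.321. They were the only ones of the 40 named Hox loci in the table to reach 1 FPKM in any group, and no gene of the Hoxa, Hoxc or Hoxd clusters was a member. That contrast rests on the level of 1 FPKM. Hoxd8 stood at 0.986 FPKM (15.3-fold), Hoxc6 at 0.943 (24.0-fold) and Hoxc8 at 0.807, listed at 0 elsewhere. A rise was therefore not particular to the Hoxb cluster.

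The drug efflux pump Abcb1b differed between the other groups as well. It was at 1.20 FPKM in wild-type DMSO livers, 0.218 in wild-type tunicamycin livers, 0.327 in knockout DMSO livers and 8.19 in knockout tunicamycin livers. In the authors' deposited table it fell by 2.46 on the log2 scale after tunicamycin in wild type and by 1.88 in the knockout under DMSO, both with q 0.000396. It was thus lower with tunicamycin in wild type, while its knockout tunicamycin level is what chose it.

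Over all members, the comparisons that the rule did not use gave few calls, and the authors' table holds no test for most members. In knockout against wild type under DMSO, 28 members were tested, of which 1 rose (Cfd) and 2 fell (Akr1b7 and Abcb1b), beside 1.39% of all 14788 tested loci called higher and 1.47% called lower. A further 147 members were not tested, and 6 had an unadjusted p under 0.05. The median difference on the log2 scale was 0.29 over 27 members with a finite value and -0.07 over all loci tested, in the authors' deposited table. In tunicamycin against DMSO in wild type, 33 were tested, 2 rose (Akr1b7 and Acta1) and 1 fell (Abcb1b), beside 18.1% higher and 19% lower of 14998 tested loci, with 8 at an unadjusted p under 0.05. The median there was 0.26 over 31 members and -0.02 over all loci tested, in the authors' deposited table. The rule requires knockout tunicamycin livers to stand at least 5 times above wild-type tunicamycin livers. A locus that tunicamycin raised in wild type could be a member only with a still higher level there, as Akr1b7 and Acta1 had. Such loci are therefore less likely to be members, and nothing is read from the count of 2.

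In both comparisons that the rule used, counts are descriptive. Knockout tunicamycin against knockout DMSO called 89 of 172 tested members higher, in a table where 18.1% of 15534 loci were called higher. Knockout against wild type under tunicamycin called 94 of 172 higher, where 3.73% of 14919 were. By home tissue the latter were 6 of 14 cortex, 7 of 12 medulla, 33 of 63 muscle, 3 of 10 fat and 45 of 73 unsorted members. All loci are an unlike background, since members differ at least 5-fold by the rule. Among named non-members at least 5-fold higher with at least 1 FPKM, 233 of 268 (86.9%) were called against knockout DMSO livers. For members that share was 51.7%. Against wild-type tunicamycin livers the shares were 26 of 42 (61.9%) for such non-members and 54.7% for members.

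Large differences were often not called. Star, at 7.76 on the log2 scale in the knockout against wild type under tunicamycin, had q 0.225, and Hsd3b1, at 9.21, had q 0.451 in the authors' deposited table. Nr5a1 (q 0.333) and Th (q 0.302) were not called there either, while Ckm and Kcnk3 were (both q 0.000396), by the authors' deposited table. Mapped intervals shared with another locus occur at 38 of the 175 members. Of the genes just named, Star, Hsd3b1, Ckm and Kcnk3 have one, and Nr5a1 and Th do not. Whether shared intervals go with the calls was not tested. Cyp11a1, at 9.52 in that comparison, had q 0.000396, yet against knockout DMSO livers its q was 0.339 at 13.92, in the authors' deposited table. Of members at least 20-fold higher than wild-type tunicamycin livers, 57 of 128 were called, and of those among them at least 100-fold higher, 19 of 65. Named non-members with at least 1 FPKM and such differences were few, with 1 of 7 called at 20-fold or more and 0 of 3 at 100-fold or more.

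The members made up most of the largest called rises of the knockout over wild type under stress. Of named loci called higher there with at least 1 FPKM, members were 94 of 282 at 2-fold or more, 94 of 120 at 5-fold or more (78.3%), and 79 of 83 at 10-fold or more (95.2%). The 4 others at 10-fold or more were 1700061I17Rik, Eda2r, Phlda3 and Hmgn3, of which the first 3 were higher in knockout DMSO livers than in knockout tunicamycin livers. These shares follow in part from the rule, which required a 5-fold excess over the same group. In tunicamycin against DMSO within the knockout, members were 89 of 322 at 5-fold or more (27.6%).

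Lists for other organs held no member. The 8 kidney genes were all under 0.1 FPKM, with 4 at 0, and all 6 genes of the endocrine pancreas were listed at 0. The 9 genes of the exocrine pancreas summed to 0.709, 0.504, 1.11 and 1.13 FPKM and the 9 of heart to 1.04, 0.845, 1.70 and 1.35. The 7 gut genes summed to 74.8, 18.3, 44.8 and 16.3 FPKM, lowest in knockout tunicamycin livers. The 5 smooth muscle genes summed to 5.96, 9.48, 10.4 and 11.1 FPKM and the 5 of mesothelium to 2.78, 1.31, 1.46 and 2.89, both highest in knockout tunicamycin livers. Lists of the 4 home tissues summed highest in knockout tunicamycin livers: cortex to 453, 296, 388 and 1793 FPKM, medulla to 36.4, 62.5, 34.8 and 238, muscle to 62.6, 109, 55.004 and 802, and fat to 44.4, 62.5, 52.5 and 338. These sums include 11, 9, 38 and 8 members in the same order, which are highest there by the rule. Their order over the groups is therefore a description of the choice and no contrast with the lists without members.

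The lists were called as follows, with the rule's group in the first 2 comparisons. In the knockout against wild type under tunicamycin, 10 of 21 tested cortex loci, 6 of 21 medulla, 26 of 52 muscle and 7 of 16 fat loci were called higher, and 0, 1, 1 and 1 lower. In tunicamycin against DMSO within the knockout, 7 of 21, 8 of 21, 21 of 52 and 9 of 16 were called higher in the same order, and 2, 0, 0 and 1 lower. These are the comparisons that chose the members. In knockout against wild type under DMSO, 0 of 13 cortex, 0 of 5 medulla, 0 of 13 muscle and 2 of 9 fat loci were called higher, and 1, 0, 1 and 0 lower. In tunicamycin against DMSO in wild type, the counts higher were 1 of 13, 1 of 5, 2 of 20 and 3 of 8, and 3, 0, 0 and 1 were lower. Over all tested loci, 3.73% were called higher in the knockout under tunicamycin and 18.1% after tunicamycin within the knockout. Called lower there were 327 of 14919 and 2305 of 15534. The shares higher and lower were 1.39% and 1.47% in the knockout under DMSO, and 18.1% and 19% after tunicamycin in wild type.

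**Figure D5:**
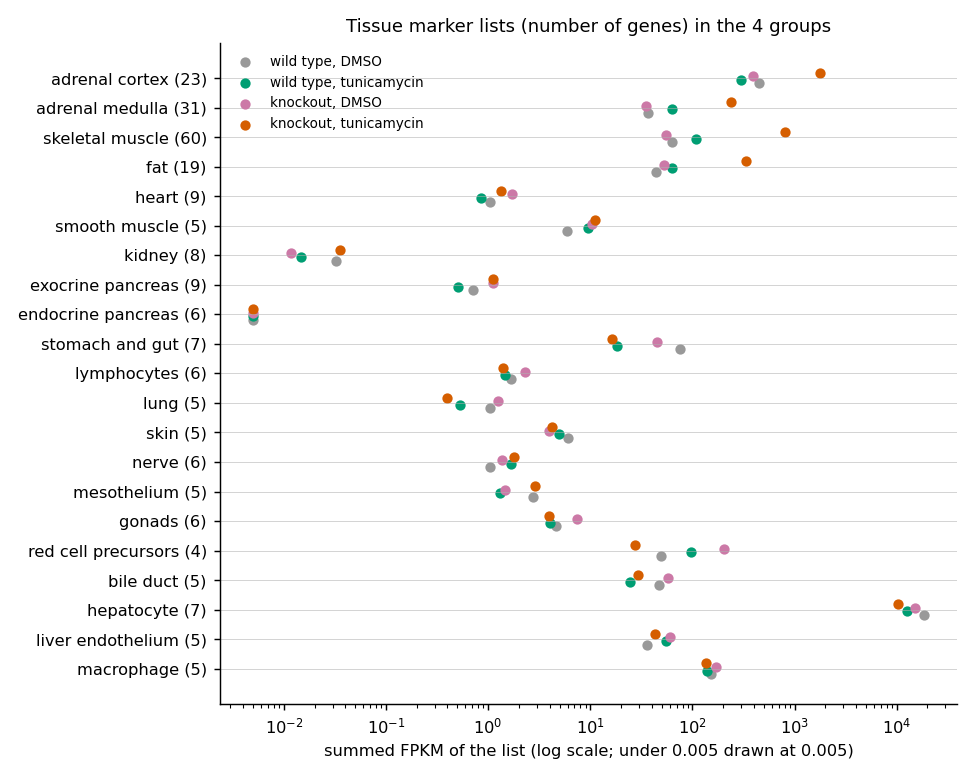
Summed FPKM (log scale) of each tissue's marker list in the 4 groups, with the number of listed genes in brackets; sums under 0.005 are drawn there. The cortex, medulla, muscle and fat lists are highest in knockout tunicamycin livers, and they hold members, which are highest there by the rule. Kidney stays under 0.1 FPKM and endocrine pancreas is at 0 in every group.

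Members just inside the fold of 5 were Srl (5.33), Scd2 and Scd3 (5.37), Tnnt1 (5.38), Gm6460 (5.43) and Filip1 (5.47), and those just outside were Rgs2 (4.80), Lynx1 (4.71), Retnla (4.70), Soat1 (4.60) and Hmgn3 (4.58). Near the level of 1 FPKM, Nap1l5, 2310002L09Rik, Ptprn, Ppp1r27 and Cacna1c were inside at 1.00 to 1.04 FPKM, and Hoxd8, Mgat4c, Slc6a4, Spock2 and Art1 were outside at 0.986 to 0.958.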

How the data were processed

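Poly(A) RNA of 12 mouse liver libraries was sequenced by the authors. The submitters' processing notes name TopHat2 2.0.4, bcl2fastq, Cufflinks, Cuffdiff and the build mm9. Which annotation and which scaling between libraries were used is not given in these sources. Per the file headers, the authors deposited for each locus an FPKM per group, pooled over 3 libraries, and for 6 comparisons of groups a log2 fold change, a test score, a p-value and a q-value. A Benjamini-Hochberg adjustment of the p-values over all 90828 tests gave the deposited q-values to within 5.29e-07. Depth is unknown, and no replicate test, SD or interval could be made, so the authors' own test was used: a locus was called at deposited q under 0.05 with status OK.

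Members were found by the rule given above and sorted by hand to home tissues from background knowledge. The members, the tissue sort and the 21 tissue lists of 236 genes were chosen with earlier results of these data known. A symbol at several loci was read at the locus of its own name with the highest mean FPKM. Genes named are 7 markers, in each home tissue mainly those with the highest level or the largest fold, the members nearest the thresholds, listed genes and members called in a comparison that the rule did not use; the unsorted Hox genes, and the large rises that were not members, were chosen after their values were seen. Alternatives changed the thresholds, the pseudocount, the scaling and the q-value. The scripts were tested on simulated data and used pandas 2.3.3, numpy 2.4.6 and, for figures, matplotlib 3.10.9, under Python 3.11.15. Promoter windows came from RefSeq (GRCm38.p6) by gene symbol, and locus positions are those of the table in mm9.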

Additional observations from a re-analysis of the deposited data

How the results depend on the processing

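Of 124 alternative values, 99 were classed as the same as their main value, 25 as moved and 0 as reversed. The class of same values was wide. It held the total of 258 members at a level of 0.5 FPKM, against 175 in the main setting. It also held the medulla counts of 18 at that level and 8 at 5 FPKM, against 12. A level of 0.5 FPKM gave 147 unsorted members, which was classed as moved. A level of 5 FPKM left 75 members in all, of which 23 were of muscle, 5 of fat and 27 unsorted. With 1 FPKM added to every value before the fold, 67 members were left, 21 of muscle, 5 of fat and 21 unsorted, since low levels elsewhere then count as 1. Median folds on the log2 scale then fell from 8.29 to 4.43 for cortex, 9.22 to 3.74 for medulla, 5.36 to 1.86 for muscle, 4.77 to 2.31 for fat and 4.23 to 1.78 for unsorted members. Leaving out loci with shared intervals, an alternative chosen after seeing the data, left 9 cortex members. With q computed within a comparison, members called higher in knockout against wild type under DMSO went from 1 to 0, and members called lower after tunicamycin in wild type from 1 to 2. Under DMSO, fat-list loci called higher in the knockout went from 2 to 0, and to 1 at q under 0.01, and muscle-list loci called lower from 1 to 0 by both. Under tunicamycin, medulla-list and muscle-list loci called lower in the knockout each went from 1 to 0 by both.

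No paired analysis was possible because the labels give no replicate numbers and the values pool the libraries of a group. For the same reason no library was left out, and the depth behind each value is unknown. At levels near 0 outside knockout tunicamycin livers, a fold rests on few fragments, and the order of the other groups at a single locus is uncertain.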

Other observations

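Besides the 175 named members, 9 loci without a gene name met the same thresholds. The highest, on chromosome 11 (mm9 chr11:60482784-60495958), was listed at 0 in the 3 other groups and stood at 43.0 FPKM in knockout tunicamycin livers. The next, chr12:102460093-102460582, was at 0 FPKM in wild-type DMSO, 0.351 in wild-type tunicamycin, 0.0454 in knockout DMSO and 30.1 in knockout tunicamycin livers. The 7 others were at 1.16 to 2.99 FPKM there.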
